A study of Mus musculus with 2 samples.

Results

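Peaks that were deep and flat in CUT&Tag of ISL1 and lay away from the ends of protein-coding genes numbered 2167, of 13411 peaks shared by the 2 replicates. A shared peak is the union of intervals of both replicate lists that overlap by at least 1 bp on chromosomes 1 to 19 and X. Its maximum signal, the highest coverage within an interval in the authors' lists, was 10 to 50 in both lists. Its total signal, the coverage summed over the bases, was at least 0.95 of width times maximum in at least 1 list, which makes the coverage level, or flat, from end to end. It did not overlap the 1 kb to either side of an end of any of 21631 protein-coding genes in the RefSeq table. The members were thus chosen by their signal, flatness and position, and these values are given as a description. The members are away from gene ends and not away from genes, since 1146 of the 2167 had their midpoint inside a gene.

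Both samples were whole retina of wild-type mice at E13.5, profiled with antibody against ISL1, and they form 1 group of 2 replicates. The labels name a pair of rabbit antibodies without saying which replicate received which, and leave out whether separate animals gave the replicates. No strain is given, and no sample with a control antibody and no mutant retina was analysed here. Replicate 1 listed 120303 intervals on these chromosomes, covering 40.8 Mb, and replicate 2 listed 152161, covering 52.6 Mb. Read depth is not given in the sources used here, so the size of the signal in one list beside the other is described and not tested.

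ISL1 is a LIM-homeodomain transcription factor that is made in newly born retinal ganglion cells and is needed, together with POU4F2, for their differentiation. In CUT&Tag an antibody on its target directs the transposase Tn5 to cut nearby DNA and to attach sequencing adapters, and the released fragments are amplified by PCR. Tn5 cuts the strands at staggered positions, so that fragments on either side of a single insertion share a short stretch of sequence. Coverage that is exactly level across an interval means that every read counted there spans the same bases, and the lists do not give the number of separate molecules behind it.

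A subset of members overlapped windows around internal transcription starts of protein-coding genes or around starts of noncoding genes. The rule on the outer ends of protein-coding genes does not remove either kind. Sequences at 5 of these starts are printed to show what kind of DNA such peaks lay on. They were chosen after their values were seen: Pax6 as the gene with the most members, and the others for high signal in at least 1 list. Each is the RefSeq window of 250 bases before to 50 bases after a start in GRCm38.p6, written from 5′ to 3′ on the strand of the gene, with capitals marking the bases covered by intervals of both replicates.
Pax6, chr2:105682213-105682512, plus strand: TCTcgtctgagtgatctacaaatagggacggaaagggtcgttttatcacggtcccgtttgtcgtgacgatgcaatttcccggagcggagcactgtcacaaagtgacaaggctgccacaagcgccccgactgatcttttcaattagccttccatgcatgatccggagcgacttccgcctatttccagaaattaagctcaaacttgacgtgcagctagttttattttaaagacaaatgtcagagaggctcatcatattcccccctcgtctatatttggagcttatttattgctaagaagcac
Egr2, chr10:67537316-67537615, plus strand: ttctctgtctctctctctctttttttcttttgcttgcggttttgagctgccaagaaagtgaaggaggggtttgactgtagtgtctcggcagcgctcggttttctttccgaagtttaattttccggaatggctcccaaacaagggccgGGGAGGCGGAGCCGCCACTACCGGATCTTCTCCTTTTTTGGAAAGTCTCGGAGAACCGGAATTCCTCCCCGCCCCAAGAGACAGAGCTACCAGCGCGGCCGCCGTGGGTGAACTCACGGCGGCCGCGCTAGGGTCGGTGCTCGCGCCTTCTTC
Dnmt1, chr9:20952574-20952873, minus strand: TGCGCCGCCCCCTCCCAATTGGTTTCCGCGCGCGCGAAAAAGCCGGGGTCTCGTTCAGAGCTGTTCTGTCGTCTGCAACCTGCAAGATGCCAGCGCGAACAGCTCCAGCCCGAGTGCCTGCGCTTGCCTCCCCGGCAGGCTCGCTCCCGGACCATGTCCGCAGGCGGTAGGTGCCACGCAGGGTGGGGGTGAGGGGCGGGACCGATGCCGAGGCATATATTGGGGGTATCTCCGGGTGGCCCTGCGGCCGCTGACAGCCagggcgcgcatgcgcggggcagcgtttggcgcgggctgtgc
Angel2, chr1:190928572-190928871, plus strand: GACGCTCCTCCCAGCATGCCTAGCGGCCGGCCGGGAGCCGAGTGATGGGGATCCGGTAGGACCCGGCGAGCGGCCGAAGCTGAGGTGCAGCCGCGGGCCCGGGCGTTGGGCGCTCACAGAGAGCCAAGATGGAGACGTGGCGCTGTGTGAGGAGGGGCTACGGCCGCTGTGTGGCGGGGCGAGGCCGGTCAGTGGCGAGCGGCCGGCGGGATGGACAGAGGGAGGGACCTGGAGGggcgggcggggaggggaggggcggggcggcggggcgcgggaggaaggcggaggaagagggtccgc
Aldoa, chr7:126799205-126799504, minus strand: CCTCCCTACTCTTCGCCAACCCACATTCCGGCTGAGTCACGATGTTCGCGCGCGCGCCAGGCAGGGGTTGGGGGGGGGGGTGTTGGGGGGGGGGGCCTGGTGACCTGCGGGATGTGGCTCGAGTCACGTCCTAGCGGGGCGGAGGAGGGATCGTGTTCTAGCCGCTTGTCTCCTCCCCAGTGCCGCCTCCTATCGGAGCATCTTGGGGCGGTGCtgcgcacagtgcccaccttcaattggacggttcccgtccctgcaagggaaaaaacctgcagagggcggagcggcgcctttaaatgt

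The window of Pax6, a paired-homeodomain regulator of the eye field and of retinal progenitors, lay in a peak with a maximum of 19 in replicate 1 and 27 in replicate 2. The intervals of the 2 replicates overlapped there by 26 bp, of which 3 fell in the window. The peak at Egr2, a zinc-finger gene of the immediate early response, reached 39 and 19, and 153 of the window's bases were covered in both lists. At Dnmt1, the maintenance DNA methyltransferase, the maxima were 46 and 17, and 259 bases of the window were covered in both. Angel2 had maxima of 34 and 36 with 235 bases covered in both, and Aldoa, a glycolytic aldolase, had 17 and 38 with 214. Both replicates covered the start base itself at Egr2 and Dnmt1, while at Pax6, Angel2 and Aldoa their joint coverage ended before it. The list with the higher maximum differed from gene to gene.

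Signal and flatness, by which the members were chosen, were alike in distribution in the 2 lists. The maximum ran from 10 to 50 in replicate 1 and from 10 to 49 in replicate 2, with a median of 18 and quartiles of 14 and 23 in each. Few members were high in both lists: 365 reached 20 in both and 18 reached 30 in both. The maximum was higher in replicate 1 at 1031 members, higher in replicate 2 at 1025 and equal at 111. Between the lists the maxima had a Spearman rho of 0.0222 across the 2167 regions, which share the same 2 libraries and a range limited by the rule. Within this range the height of a member in one replicate was almost unrelated to its height in the other. At 396 members (18.3%) the maxima differed by at least 2 times.

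**Figure D1:**
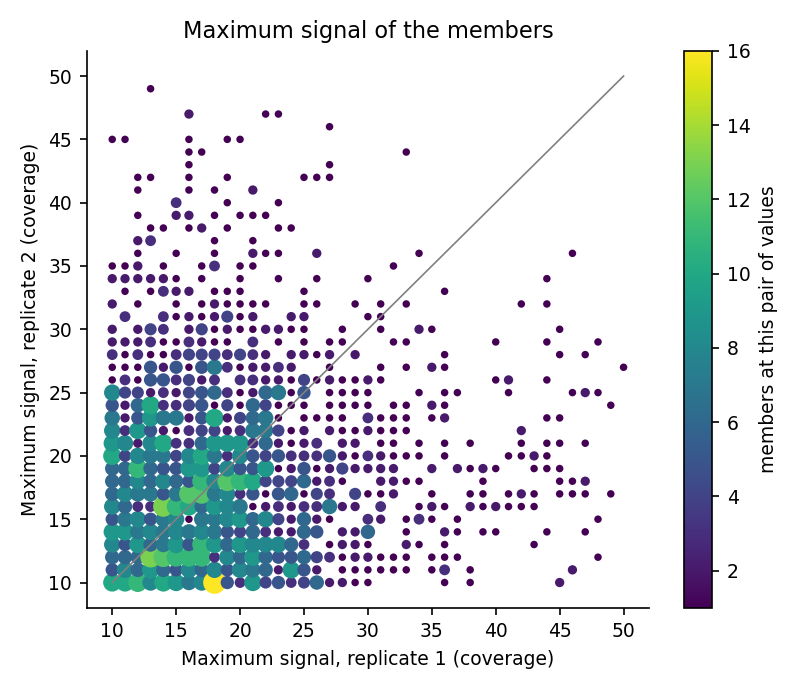
Maximum signal (coverage) of the 2167 members in replicate 1 (horizontal axis) and replicate 2 (vertical axis), with circle size and colour giving the number of members at each pair of values and the line marking equal maxima. The circles fill the square from 10 to 50 without following the line, and are densest where both maxima are 10 to 25.

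Coverage was exactly level in both lists at 975 members (45.0%), and in 566 more it lay within 0.95 of level in both. The other 626 (28.9%) were flat in one list and uneven in the other, of which 360 were uneven in replicate 1 and 266 in replicate 2. Uneven coverage needs reads with different ends. Intervals that were uneven were the wider ones: in the 360 members uneven in replicate 1 the median width was 615.5 bp in that list and 304 bp in the other. Across all members the median width was 343 bp in replicate 1 and 335 bp in replicate 2, and the union measured 516 bp. In 2100 members each list gave 1 interval.

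The limits of the rule on signal and position passed through a continuous range of values. The lower of the 2 maxima was 10 at 259 members, while 245 otherwise eligible peaks had 9. A peak near Cracdl with 10 in both lists was inside the limit, and a peak near Ankrd44 with 10 and 9 was outside. At the upper limit a peak near Cibar1 with 50 and 27 was inside, and a peak near Syne3 with 51 and 11 was outside. Few peaks lay near the limit on flatness. By the flatter list, 15 members had 0.95 to 0.97, and 5 otherwise eligible peaks had 0.93 to 0.95. A peak near Myt1l was inside on a flatness of 0.951 in replicate 1, while one near Pde10a was outside on 0.948. A peak near Myo5a with its midpoint 1175 bp from the nearest gene end was inside, and one near Tgfb2 at 1466 bp was outside because its edge entered the 1 kb window.

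The geometry of the overlap was not used by the rule beyond 1 bp. The intervals of the 2 replicates overlapped by a median of 165 bp, and their centres lay a median of 141.5 bp apart. Identical ends in both lists were found at 5 members (0.231%, 95% Wilson interval 0.0986 to 0.539). Among 3977 flat shared peaks away from gene ends whose maximum was under 10 in both lists, called shallow here, there were 243 (6.11%, 5.41 to 6.90). Over all shared peaks there were 1837 identical pairs, of which 1502 (81.8%) joined a maximum of 1 in one list to a maximum of 10 to 50 in the other. Most identical pairs of the series thus lay outside the members through the limit on signal, and 13 of the 1837 had 10 to 50 in both lists. The Wilson intervals here and below cover counting error only, since regions of 1 pair of libraries are not replicates, and no test of a difference between sets of regions was made.

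An overlap of exactly 9 bp stood out among members whose intervals were staggered, with neither holding the other. Of 1348 such members, 67 (4.97%, 3.93 to 6.26) overlapped by 9 bp. By comparison 1 overlapped by 8 bp and 3 by 10 bp, and the 29 other lengths from 1 to 30 bp held 0 to 13 members each, with a median of 5. As background, 9 bp is the stretch that Tn5 duplicates at an insertion. The 67 lay on 16 chromosomes, with replicate 1 on the left in 39 and replicate 2 on the left in 28. Where coverage was exactly level in both lists the share was 34 of 682 (4.99%). Shallow peaks showed the same length at 72 of 2226 staggered pairs (3.23%, 2.58 to 4.05), with 3 to 23 pairs at each other length. Of 118 staggered peaks of the same depth and position that were uneven in both lists, 0 overlapped by 9 bp, which allows a share of up to 3.15% by the Wilson interval. A member inside Pax6, 11562 bp from its nearest end, and one inside Cops7b were among the 67. Whether the libraries share molecules at these places was not tested.

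**Figure D2:**
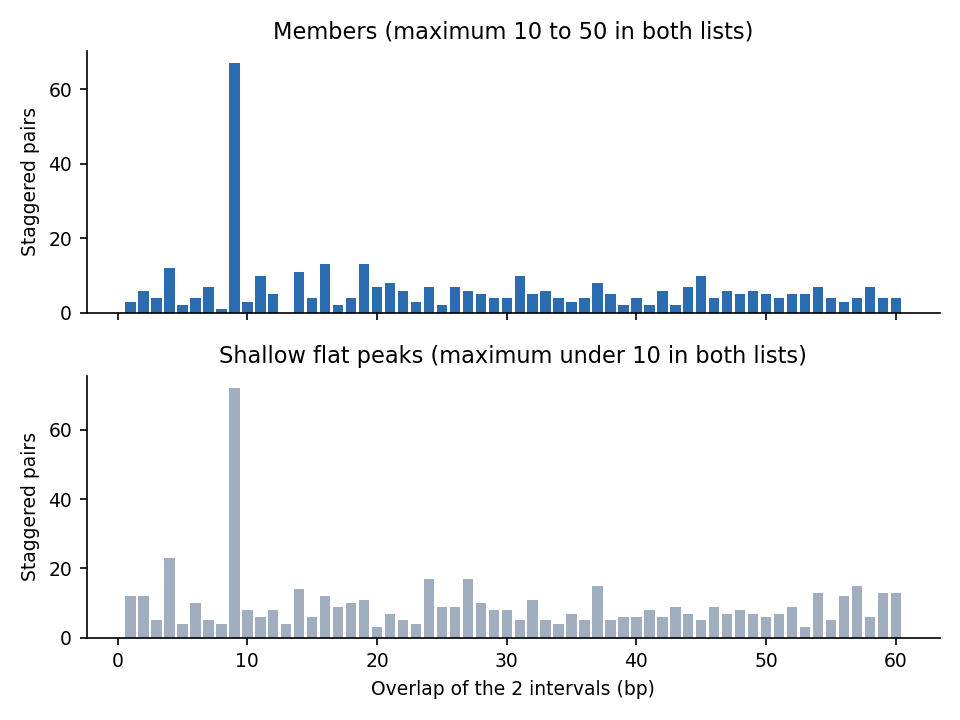
Number of staggered pairs of intervals (vertical axis) by the length of their overlap in bp, from 1 to 60 (horizontal axis), for the members (upper panel) and the shallow flat peaks (lower panel). The bar at 9 bp holds 67 member pairs and 72 shallow pairs and is the tallest in each panel.

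Members lay inside genes more often than flat intervals of the same depth that only 1 replicate listed. Midpoints were in a gene body at 52.9% of members (50.8 to 55.0), in 965 host genes. The share was 46.4% (46.0 to 46.8) of 53239 such intervals of replicate 1 alone and 44.1% (43.7 to 44.5) of 62348 of replicate 2 alone. Shallow shared peaks were inside genes at 29.7% (28.3 to 31.1). The 366 deep shared peaks that were uneven in both lists were inside at 52.5% (47.3 to 57.5), an interval that holds the value of the members. The files do not pair genes with exons, so exon and intron were not separated. The nearest gene end lay a median of 33770 bp from a member (quartiles 9608 and 103022 bp), against 30780 bp for deep uneven peaks and 59926 bp for shallow ones. For intervals of 1 list alone it was 40521 bp in replicate 1 and 44218.5 bp in replicate 2. A gene end lay within 5 kb of 339 members, and 552 members were more than 100 kb from any.

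Internal starts of protein-coding genes and starts of noncoding genes were the other position that the rule did not use. The RefSeq table of start windows holds none for chromosome 18, which leaves 2084 members. Of these, 111 (5.33%, 4.44 to 6.38) overlapped the window of a start, 84 of them a start of a protein-coding gene and 27 only starts of noncoding genes. They touched 135 windows of 120 genes, the start base lay inside the peak at 81 of the 111, and both lists covered part of a window at 74. Seen from the windows, 133 of 13634 that were clear of coding gene ends overlapped a member, or 0.976%. Counted by region, as in the 5.33% of members, the share that overlapped a window was 0.833% (0.758 to 0.915) for deep flat intervals of replicate 1 alone. For those of replicate 2 alone it was 0.644% (0.583 to 0.711). It was 0.568% (0.375 to 0.859) for shallow shared peaks and 7.76% (5.39 to 11.1) for deep uneven ones. A union of 2 intervals is wider than 1 interval, with medians of 520 bp for these members and 251 and 257 bp for the intervals of 1 list. By midpoint, which does not depend on width, 47 members (2.26%, 1.70 to 2.99) lay in a window, against 1.44% (0.615 to 3.32) of deep uneven peaks, whose median width was 908.5 bp, 0.484% (0.428 to 0.548) and 0.334% (0.291 to 0.383) for 1 list alone and 0.181% (0.0876 to 0.373) for shallow peaks. More than 5 kb from any gene end, 72 of 1752 members (4.11%) overlapped a window, against 0.687% and 0.492% for 1 list alone. At any distance, the share among the 2084 members was 4.47% for those exactly level in both lists. It was 3.89% for the others within 0.95 of level in both. Those flat in replicate 1 and uneven in replicate 2 had 5.88%, and those flat in replicate 2 and uneven in replicate 1 had 9.43%. Uneven intervals were the wider ones, as given above.

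**Figure D3:**
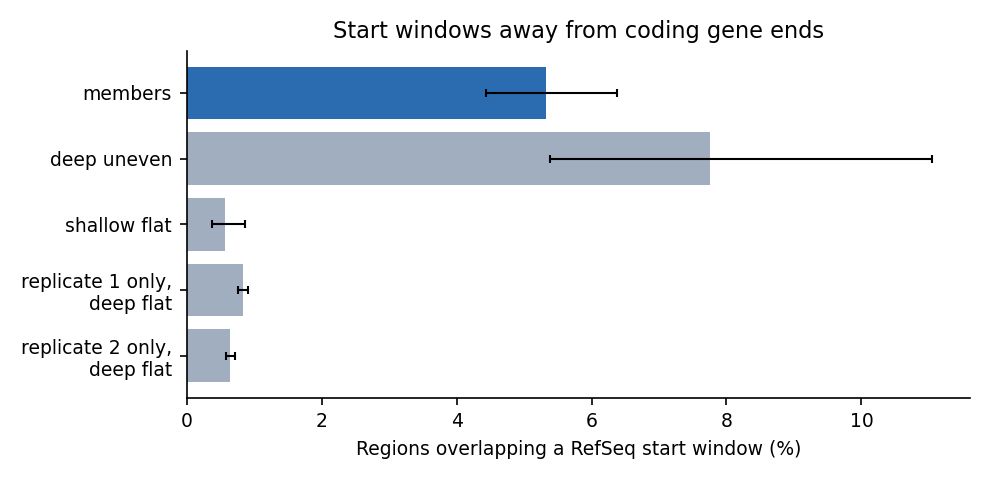
Percent of regions that overlap a RefSeq start window (horizontal axis), for the members and 4 other sets of regions away from coding gene ends, with bars for the share and lines for its 95% Wilson interval. Members, at 5.33%, and deep uneven peaks, at 7.76%, sit above shallow peaks and intervals of 1 list alone, which are all under 1%.

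The 135 windows were rich in CpG, like the capitals in the Angel2 and Dnmt1 sequences above. Their median GC content was 61.7%, against 48.7% for the 13634 windows clear of coding gene ends and 53% for all 32619 windows. The median number of CpG in the 300 bases was 20, against 4 and 7. The homeodomain core TAATTA, searched on both strands as were all 8 motifs, was in 5.93% of the windows at members (3.03 to 11.3), 6.67% of those clear of ends and 5.25% of all. The ISL1-type cores CTAATG and TAATGG were in 6.67% and 5.19% at members, against 8.98% and 9.62% clear of ends and 7.34% and 7.69% of all. All 3 hold the letters TAAT, so that their matches can overlap. The core GGATTA of OTX and CRX factors was in 2.96%, 8.50% and 7.04% of the same 3 sets. For the E-box CAGCTG the shares were 17.0%, 18.0% and 16.4%, and for the E-box CATATG 1.48%, 5.13% and 3.82%. The SOX core ACAAT was in 24.4%, 37.1% and 30.7%, and the NFI core TTGGCA in 5.93%, 16.1% and 14.1%. Among the 5 windows printed above, a match was found in that of Egr2, for TTGGCA, outside the bases covered in both lists. Motifs were counted over whole windows, of which a member may cover only a part. The motif shares were not adjusted for the higher GC content of the windows at members. Windows overlapped by the other sets of regions were not counted for CpG or motifs. The windows describe starts beside members, and sequences of the members that lay elsewhere were not analysed here.

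Beside noncoding genes, 170 members (7.84%) lay within 1 kb of an end, 134 of them of a long noncoding RNA. A miRNA hairpin was overlapped by 3 members, at Mir1953 (22 in replicate 1 and 10 in replicate 2), Mir5620 (37 and 19) and Mir210 (29 and 14). Mir210 is a miRNA known for its induction by low oxygen. A member with maxima of 24 and 28 ended 784 bp from the hairpin of Mir9-3, a copy of the neural miRNA miR-9. The counts at noncoding genes and hairpins were not set against the other sets of regions. They are a description and do not show whether members differ from those sets.

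The 10 members with the highest lower maximum lay mostly inside genes, where 52.9% of all members and 61.4% of those with a maximum of 20 to 50 lay. The first was inside Hkdc1, a hexokinase-like gene, at chr10:62418985-62419578, with maxima of 46 and 36. Then came peaks inside Gbf1 (44 and 34), Angel2 (34 and 36), Kdm4c (36 and 33), Ube4b (44 and 32), Cyp11a1 (42 and 32), Sema3e (32 and 35) and Mbnl2 (31 and 32). Another 2 were between genes, 134643 bp from Sec16b (33 and 44) and 43251 bp from Chd7, a chromatin remodeller (33 and 32). The midpoints at Kdm4c, Angel2 and Ube4b were 13, 158 and 221 bp from a RefSeq start. All 10 were flat in one list and uneven in the other, against 28.9% of all members. The one in Hkdc1 was only just uneven, with a flatness of 0.9495 in replicate 1.

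Each member was given to the gene whose end lay nearest to its midpoint, up to 50 kb away, which gave 1162 genes, or 5.37% of all 21631. Of these, 1065 had 1 member, 84 had 2 and 13 had 3 or more. Shallow peaks were assigned to 7.14% of genes and deep uneven peaks to 0.966%. Counts for each group of genes below are read against the 5.37%, and beside them stands the density of members per Mb of territory, the sequence nearest to the genes' ends, since developmental regulators often have long territories. Over all genes the density was 1.04 members per Mb.

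Regulators of retinal progenitors had the highest share of the 13 groups by nearest gene end: 18 of 44 genes (40.9%, 27.7 to 55.6) had a member, against 7 with a shallow peak. Where a member inside a gene was given to that gene first, the share was 40.9% again, below axon guidance at 54.8% (17 of 31) and cell adhesion at 41.9% (18 of 43), against 6.53% of all genes. They held 24 members, or 6.51 per Mb and 6.23 times the density over all genes, whereas shallow peaks stood at 1.63 times. Deep peaks that were uneven in both lists lay beside 6 of the 44 genes (13.6%) and stood at 10.4 times, on 7 peaks. Deep flat intervals of replicate 1 alone stood at 1.87 times and those of replicate 2 alone at 1.73 times. The ratio for members was above that for deep flat intervals of either list on its own and below that for deep uneven peaks, and these differences were not tested. A member needs an interval in each list, so where both lists are dense, unrelated intervals overlap more often as well. The number of such overlaps was not estimated, here or for the groups below. Pax6 had 5 members, more than any other gene. Sox2, the SOXB1 factor of neural progenitors, had a member 27265 bp from its nearest end (38 in replicate 1 and 16 in replicate 2). Lhx2, a LIM-homeodomain gene of the optic vesicle, had one 1198 bp from its end (12 and 17), Hes1, a Notch effector, one at 2498 bp (14 and 34), and Nr2e1, an orphan nuclear receptor of progenitors, one at 3284 bp (31 and 15). Fgf15, Sfrp2, Meis2, Nfia, Nfib, Zic5, Foxd1, Tbx5, Casz1 and Ikzf1 had 1 member each and Nr2f1 and Meis1 had 2. Nfia and Nfib are late-acting factors of progenitors, and Casz1 and Ikzf1 mark successive ages of progenitors. Six3 and Six6, homeobox genes of the eye field, had no member.

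The 5 members of Pax6 ranged from 16 to 45 in replicate 1 and from 12 to 28 in replicate 2. The most upstream, at chr2:105678866-105679353 inside the gene, had 16 in replicate 1 and 13 in replicate 2. The next, at chr2:105680238-105680679, had 22 and 12, and the one in the printed window had 19 and 27, where the interval of replicate 2, 84 bp wide, ended before the start and that of replicate 1, 376 bp wide, covered it. Another 2 lay past the far end of Pax6, inside the neighbouring gene Elp4, whose introns are known to hold distant enhancers of Pax6. The one at chr2:105701924-105702358 had 20 and 22, and the one at chr2:105720542-105721404 had 45 and 28, the highest of the 5 in each list. A further member in Elp4, with 14 and 34, lay 102501 bp from Pax6 and was assigned to no gene. All 6 formed a single run of 122 kb within genes.

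**Figure D4:**
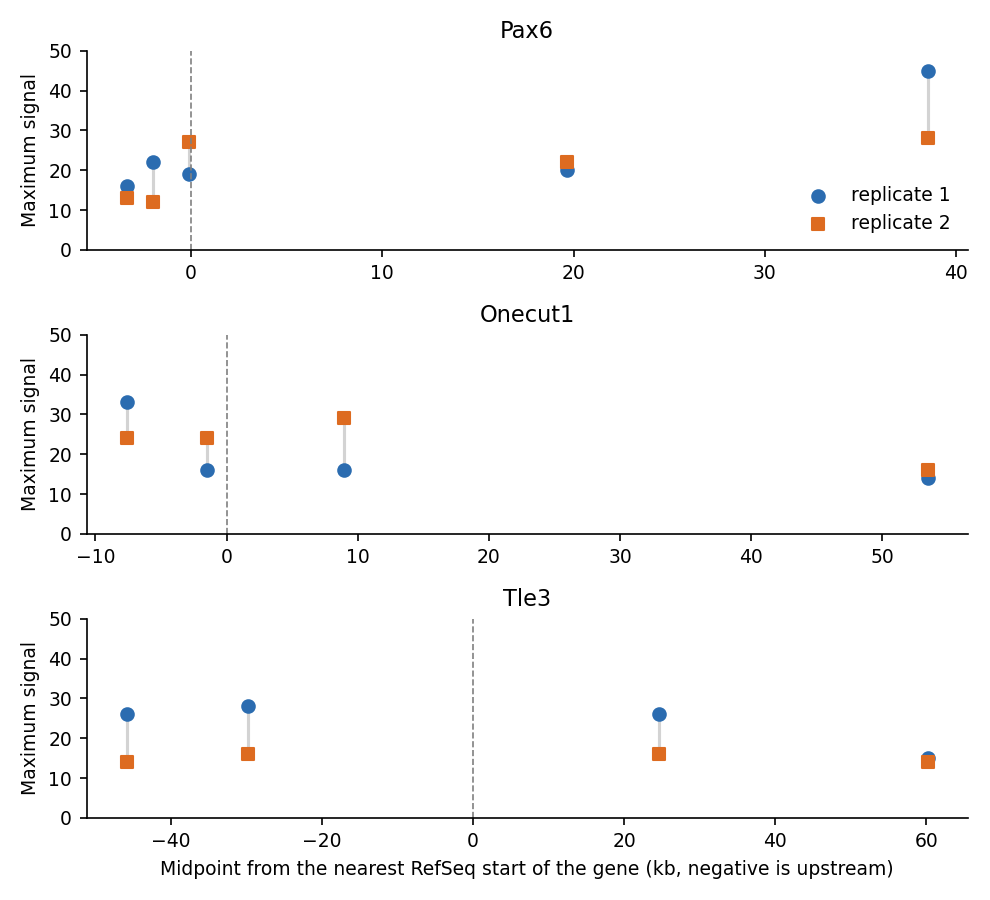
Maximum signal (vertical axis) of the members assigned to Pax6, Onecut1 and Tle3 in replicate 1 (circles) and replicate 2 (squares), against the distance of their midpoints from the nearest RefSeq start of the gene in kb (horizontal axis, dashed line at the start). The members of Pax6 lie on both sides of the start and reach 45 and 28 at the most distant one, and those of Onecut1 and Tle3 flank the start.

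Among regulators of ganglion cell fate, 9 of 38 genes (23.7%, 13.0 to 39.2) had a member and 10 had a shallow peak. The density was 3.05 times that over all genes for members, 1.80 for shallow peaks, and 1.53 and 1.14 for deep flat intervals of replicate 1 and replicate 2 alone. Isl1 itself had a member beyond its far end, at chr13:116293487-116293975, 15957 bp downstream of its start. It had 40 in replicate 1, where coverage was uneven, and 16 in replicate 2, where it was level. Pou4f2, the POU factor that acts with ISL1, had one at chr8:78419685-78420421, 16594 bp downstream of its start, with 20 and 28. Onecut1, a factor of early ganglion and horizontal cells, had 4: 7616 bp upstream of its start (33 and 24), 1476 bp upstream (16 and 24), 8981 bp inside (16 and 29) and 25728 bp beyond its far end (14 and 16). Neurog2, a proneural bHLH gene, had 2 in close succession, 4749 bp (10 and 14) and 5766 bp (13 and 17) from its end, and Klf4, Barhl2, Irx2 and Bcl11b had 1 each. Atoh7, the proneural gene of ganglion cells, had no member.

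The 21 LIM-homeodomain factors and cofactors overlap both lists above. Of these, 6 had a member (28.6%, 13.8 to 50.0), at 2.86 times the density over all genes: Isl1, Lhx2, Lhx4, Lmx1a, Lmx1b and Lmo1. Deep uneven peaks stood at 2.73 times (1 peak), shallow peaks at 1.33, and deep flat intervals of 1 list alone at 1.64 and 1.54. The one in Lmo1, a LIM-only partner protein, had 41 and 25 and was close to the limit on flatness, at 0.951 in replicate 2.

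Axon guidance genes had a member at 9 of 31 (95% Wilson interval 16.1% to 46.6%), with a density of 2.39 times that over all genes against 2.28 for deep uneven peaks (2 peaks), 0.97 for shallow peaks and 1.07 and 1.10 for 1 list alone. Efna5, an ephrin of topographic mapping, had one 1269 bp inside its start with 31 in both lists, at chr17:62879834-62880262, and another 36711 bp from its end (16 and 17). Unc5c, a netrin receptor, had one 2336 bp inside its start with 16 in both lists, and one with 17 in both. Slit1, a repellent ligand of ganglion cell axons, had one 3482 bp from its end (18 and 11) and one at 18315 bp (15 and 17). Slit3, Plxna2, Sema3d, Sema6a, Epha3 and Ephb2 had 1 each. Robo2, the SLIT receptor, held 3 members in a run of 43.4 kb deep inside the gene. The one nearest to an end, with 21 and 20, was 651556 bp from it, so the assignment within 50 kb counted none of them.

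Genes of other retinal neurons had smaller shares than those of progenitor regulators. Amacrine and horizontal cell genes had a member at 6 of 30 (20.0%, 9.51 to 37.3; 2.30 times the density over all genes), among them Tfap2a (15 in replicate 1 and 40 in replicate 2), Prox1 (16 and 18) and Fezf2 (11 and 11). Beside amacrine and horizontal cell genes, shallow peaks stood at 0.80 times, and deep flat intervals of replicate 1 and replicate 2 alone at 1.62 and 1.19. Photoreceptor and bipolar genes had a member at 5 of 31 (16.1%, 7.09 to 32.6; 2.67 times), while 0 of the 31 had a shallow peak. Otx2, the homeobox gene of early photoreceptors and bipolar cells, had a member 159 bp from an internal start with 19 and 21, and Prdm1, which favours photoreceptors over bipolar cells, had one with 12 and 14. Differentiated ganglion cell and pan-neuronal genes had a member at 4 of 36 (11.1%, 4.41 to 25.3; 1.54 times), namely Nefl (22 and 18), Nrn1 (26 and 26), Calb2 (21 and 11) and Nsg2, which had 2. Their Wilson interval holds the 5.37% of all genes.

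Signalling genes had a member at 10 of 43 (23.3%, 13.2 to 37.7), at 2.42 times the density over all genes. Deep uneven peaks stood at 3.77 times (3 peaks), shallow peaks at 1.53, and intervals of 1 list alone at 1.31 and 1.40. With members flat in both lists the count fell to 3 of 43 (6.98%), against 3.94% of all genes. The 10 genes included Ptch1 (16 and 20), the Hedgehog receptor, and Gli3 (26 and 15), a factor at the end of that pathway. Also included were Vegfa (33 and 18), Gdf11 (41 and 17), a feedback regulator of ganglion cell number, Fgf9, Spry2, Dkk3, Ret, Igf1r and Aldh1a3, a retinoic acid enzyme of the ventral retina with 2 members (44 and 21, and 14 and 12). Cell adhesion genes had a member at 6 of 43 (14.0%, 6.56 to 27.3), but their territories were the longest of the 13 groups, with a median of 193 kb. The count depended on the assignment, at 18 of 43 with the host gene first, 14 within 100 kb and 3 within 20 kb. Per Mb they stood at 0.79 times all genes by nearest end, and at 0.83 and 0.76 times for intervals of 1 list alone.

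Groups from outside the neural retina were also counted. Genes of ISL1-dependent heart, pancreas and motor neurons had a member at 3 of 27 (11.1%, 3.85 to 28.1; 1.99 times the density over all genes): Hand2 (20 and 15), Gata4 (15 and 10) and Gata6, with 2. Genes of other cells of the eye had one at 2 of 30 (6.67%, 1.85 to 21.3; 1.46 times), the pigment gene Dct (26 and 17) and the leukocyte gene Ptprc, with 2. Genes of liver, muscle and blood had one at 1 of 30 (0.78 times), Ryr1 (23 and 17), and housekeeping genes at 0 of 30, which allows a share of up to 11.4% by the Wilson interval. The territories of housekeeping genes were short, with a median of 17.8 kb against 42.1 kb for all genes. They add up to 0.820 Mb, a length that holds less than 1 member at the density of 1.04 per Mb over all genes. With 1 group and no control, these counts describe which genes lay beside members and not whether ISL1 was bound.

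**Figure D5:**
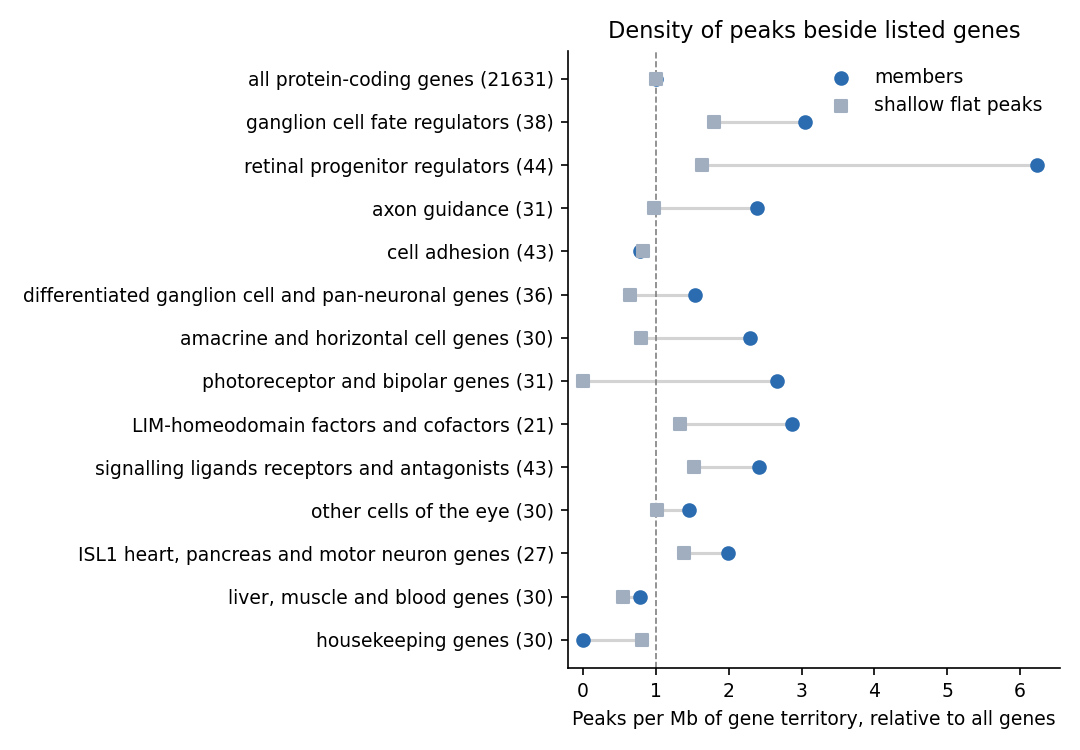
Number of peaks per Mb of territory beside the genes of 13 groups, divided by that over all protein-coding genes (horizontal axis), for the members (circles) and the shallow flat peaks (squares), with the number of genes in brackets and the dashed line at the value of all genes. Circles lie furthest right for retinal progenitor regulators, at 6.23, and lie left of the line for cell adhesion, liver, muscle and blood, and housekeeping genes.

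Some members lay close together. Another member was within 100 kb of 577 (26.6%), which formed 198 pairs, 43 groups of 3, 7 of 4 and 4 larger ones. These counts were not set beside those expected from the density of members alone, so they do not show whether members cluster. The largest held 7 members over 207 kb inside Gse1, of which 3 were nearest to an end of Gins2. Their maxima were 10 to 40 in replicate 1 and 10 to 30 in replicate 2. Frmd4a, a FERM-domain gene, held 5 of a group of 6 over 219 kb, the last being nearest to Prpf18, and 2 of these lay on internal starts, with midpoints 4 and 9 bp from them. A group of 5 over 145 kb lay between Slc38a10 and the far side of Bahcc1, with none inside a gene. The Pax6 group of 6 was the other of this size.

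Groups of 4 lay at Tle3, Zfp608, Onecut1, Sash1 and Camkmt, at Ptma with Cops7b, and at Skida1 with Mllt10. Tle3 encodes a Groucho-type corepressor, and its members had 26 and 14, 28 and 16, 26 and 16, and 15 and 14 in replicates 1 and 2. At Zfp608 they had 15 and 33, 24 and 18, 14 and 13, and 18 and 26, all inside the gene. Tle3, Zfp608 and Onecut1 were the genes with 4 assigned members, and 9 genes had 3: Ahdc1, Bahcc1, Enah, Lrrc1, Ptma, Sash1, Spag9, Src and Trim2. Among these, the member of Ahdc1 inside the gene had 44 and 29, and that at Trim2 just before an internal start had 30 and 23.

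The 43 groups of 3 included those at Meis1, Foxd1, Casz1, Slit1, Robo2, Sox6, Zfp536, Reln, Rgmb, Enah, Tox, Lingo1, Kirrel3, Lrrc4c, Brinp2, Ptprn2, Ank2, Maml3 and Hmx1 with Cpz. At Meis1, a TALE homeobox gene of progenitors, the 3 had 22 and 21, 17 and 26, and 17 and 12, all inside the gene. At Foxd1, a forkhead gene of temporal retina, they had 14 and 26, 31 and 22, and 22 and 32, all on one side of the gene and up to 97082 bp from it. At Casz1 they had 26 and 14, 14 and 22, and 27 and 16. The other groups of 3 lay at Ier5 with Mr1 and BC034090, Stk11 with Midn, Wwc1 with Tenm2, Lrrc75a with Mmgt2 and Zfp286, Mrps23 with Ccdc182, C1ql1 with Dcakd, Ccdc85c with Hhipl1, Farp1 with Stk24, Arap3 with Pcdh1, Ctdp1 with Nfatc1, Sdc3 with Laptm5, Aldh1l1 with Slc41a3, Arap1 with Pde2a, inside Thrb, a thyroid hormone receptor gene, and at Sh3pxd2a, Dcdc5, Src, Trim2, Ttll7, Ahdc1, Ccdc60, Shq1, Chst15 and Lrrc1. Whether neighbouring members mark single regions or separate ones was not tested.

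Chromosome X held 29 members (1.34%), or 0.170 per Mb, below every autosome, which ranged from 0.635 to 1.14 with a median of 0.866. Deep flat intervals of 1 list alone were fewer there as well, at 9.55 per Mb in replicate 1 against 19.5 to 24.0 on autosomes, and at 12.6 in replicate 2 against 22.0 to 26.6. Shallow shared peaks were not fewer, at 1.98 per Mb on X against 0.783 to 1.96. The sex of the embryos is not given in the sources used here, and its part in these values was not tested.

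Among flat intervals away from gene ends, overlap with any interval of the other list was most frequent at the lowest signal. In replicate 1, 6.98% (6.73 to 7.24) of those with a maximum of 10 to 19 overlapped an interval of replicate 2, 6.91% (6.55 to 7.28) of those with 20 to 29, and 9.60% (8.18 to 11.2) of those with 30 to 50. At a maximum of 1 the share was 15.4% (14.9 to 15.8), and at 2 to 9 it was 9.12% (8.76 to 9.49). In replicate 2 the shares were 5.58%, 5.86% and 7.58% in the deep classes, 6.39% at 2 to 9 and 10.9% at a maximum of 1. This order did not hold for overlap with intervals of maximum 10 to 50 only. In replicate 1 these shares were 3.40%, 3.22% and 5.05% in the deep classes and 4.67% at a maximum of 1. In replicate 2 they were 2.99%, 3.07% and 4.35%, and 3.80% at a maximum of 1. The 1502 identical pairs that joined a maximum of 1 to one of 10 to 50 were not taken out of these shares. Widths differed too: the medians in replicate 1 were 224 bp at a maximum of 1 and 487 bp at 2 to 9. They were 298, 219 and 209 bp in the deep classes, and the shares were not adjusted for width. Most deep flat intervals of either list overlapped no interval of the other, and the members come from those that did at the same depth. How many overlaps of at least 1 bp would arise between unrelated intervals was not estimated.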

How the data were processed

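Members, gene lists and comparisons were chosen with earlier results of these data known. The authors deposited 1 list of intervals per sample, whose values are total and maximum signal (whole-number coverage) without apparent scaling. Per the submitters' processing notes, FastQC, Bowtie2, MACS2 and SEACR were among the tools and mm10 was the build; the sources used here give no caller, threshold or duplicate removal for the lists. With duplicates kept, PCR copies of a fragment raise the signal of an interval.

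Intervals on chromosomes 1 to 19 and X were used (4260 of replicate 1 and 7657 of replicate 2 were left out). Coordinates are 1-based in mm10. Genes and start windows came from RefSeq tables of GRCm38.p6, whose gene table has no strand or exons, and all 424 listed genes matched. Territory is the sequence within 50 kb whose nearest gene end belongs to the gene, outside the 1 kb windows. Shares carry 95% Wilson intervals. With 1 group no test was made.

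Named members were the 10 with the highest lower maximum, up to 3 nearest to genes of each list, groups of at least 3 within gaps of 100 kb, genes with at least 3 members, Isl1, Pou4f2, Atoh7, Pax6, Sox2, Six3 and Six6, and those beside the limits. Other list genes with a member are named from the lists, after their values were seen, and some are not reported here. A planned motif search in the members needed a genome and was replaced by one in the start windows. Python 3.11.15, pandas 2.3.3 and numpy 2.4.6 were used, and the procedure was tested on simulated lists.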

Additional observations from a re-analysis of the deposited data

Results flagged for a closer look

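Outside the chromosomes used here, 9 shared peaks on unplaced or other sequences met the same limits on signal and flatness, of 200 shared peaks there. On chromosome Y 1 of 293 shared peaks met them. These regions were not set against genes.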

How the results depend on the processing

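The 2167 members became 708 with a reciprocal overlap of 50%, 365 with a maximum of 20 to 50 and 3516 with 5 to 50. The share in gene bodies was 61.4% and 49.8% under the last 2 limits, and the median distance was 26885 bp at 20 to 50, 30371 bp with windows of 500 bp and 48906 bp with windows of 5 kb, which remove the near peaks. Identical ends were found at 0.706% with the reciprocal overlap and 0% at 20 to 50. Genes with a member numbered 400 with the reciprocal overlap, 214 at 20 to 50 and 1811 at 5 to 50. Members with a neighbour numbered 74, 39 and 1237 under the same 3, 297 when flat in both lists and 190 with a gap of 20 kb. With 1 list alone there were 57261 to 66141 intervals, 44.3 to 46.5% in gene bodies, at 40193 to 43725 bp, beside 12873 to 13598 genes, of which 56072 to 65456 had a neighbour. Chosen after seeing the data, the share at start windows was 4.11% over 5 kb from gene ends, 9.20% at 20 to 50 and 3.59% away from the ends of all RefSeq genes, while the share with a 9 bp overlap stayed between 4.71 and 5.56% in 6 alternatives. Retinal progenitor regulators had 3 to 23 genes with a member over 13 settings, 6.24 to 11.1 times the share of all genes in each, axon guidance genes 1 to 17 and cell adhesion genes 2 to 18. No paired analysis was possible because there is 1 group. Unknown read depth limits every statement on intervals seen in 1 list only.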
